A study of Homo sapiens with 4 samples.

Results

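Extracellular matrix and adhesion genes were followed through the peak lists of 3 RNA pull-downs from RD cells. The set holds 35 genes, taken from a list of names, out of 20052 protein-coding genes of the RefSeq annotation on GRCh38. A peak was counted for a gene when it overlapped the annotated gene span by at least 1 base, with strand ignored, and a gene without a peak counted as 0. RD is an established line from an embryonal rhabdomyosarcoma, a tumour with features of skeletal muscle. The even and odd libraries came from pull-downs with separate sets of biotinylated antisense probes to exon 2 of ZNF609, the exon that forms the circular RNA circ-ZNF609. The LacZ library came from probes to a bacterial mRNA that human cells lack, and gives the background of the procedure. All 3 libraries came from the same cell line, and the labels give no genetic change, drug, time or dose for any of them. The fourth sample, the total lysate, was not analysed here, so the level of each RNA in the cell is not known from these values.

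Each probe set had 1 library, so there is no replicate error for any value and no difference between probe sets could be tested. The even list held 502 peaks, the odd list 542 and the LacZ list 722. Peak strength is given as reads per bin: reads are counted in windows of 170 bases, and a peak that covers several windows carries their mean. Reads per bin were not scaled to library size, and the weakest listed peak had 108 reads per bin with even probes, 105 with odd probes and 38 with LacZ probes. Each listed peak had a deposited p-value below 0.01, so those levels are the weakest listed values and not a known cut on reads. A gene at 0 is a gene with no listed peak, and its reads are not known from the lists. Values of different lists stand side by side without a comparison of recovery, and strength is read from the rank within a list. Some bins carry a fixed value of 0.01 in an unnamed score column, and member peaks over such bins are pointed out where they are described.

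The extracellular matrix is a network of secreted proteins around cells. Fibrillar collagens give it tensile strength, while type IV collagen and laminins assemble into the basement membrane, the sheet that surrounds each muscle fibre. Fibronectin, tenascin and thrombospondin are glycoproteins that cells bind to, and integrins are the membrane receptors that hold them. Talin and vinculin link integrins to actin inside the cell, and cadherins and NCAM1 bind cells to each other. Collagens and laminins are translated on the endoplasmic reticulum from long mRNAs, and their genes have many exons.

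The type IV collagen genes COL4A1 and COL4A2 held 13 of the 32 member peaks, and they start next to each other on opposite strands. The bases between their annotated starts are shown here because the positions of their peaks are counted from either end of this stretch. It spans chr13:110307158-110307283 on GRCh38.p14, is 126 bases long and was taken from the RefSeq promoter table, plus strand, 5′ to 3′. Capitals mark matches to CCAAT and to GGGCGG, searched on both strands; these motifs do not overlap each other.
COL4A1/COL4A2 intergenic: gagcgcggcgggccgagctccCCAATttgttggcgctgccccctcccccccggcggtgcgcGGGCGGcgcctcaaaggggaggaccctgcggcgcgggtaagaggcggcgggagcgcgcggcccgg
The stretch has 1 match to each motif, both on the plus strand, and its GC content is 80.2%, against a median of 61.1% for the 126 bases before the starts of 27305 genes. Among those genes, 38.6% had a match to GGGCGG and 25.1% a match to CCAAT. A match is a description of the letters and not a binding site. The promoter table held windows for 26 of the 35 members, each from 250 bases before to 50 bases after a start. Of the peaks of the 3 lists, 0 overlapped any of these windows. The windows are short beside the gene spans, and no count over the windows of other genes is given. The 0 is therefore not read as a trait of the members.

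Of the 35 members, 11 had a peak in at least 1 list (31.4%), against 4.22% of all protein-coding genes. The even list had peaks in 6 members (17.1%, background 1.54%), the odd list in 3 (8.57%, background 1.64%) and the LacZ list in 9 (25.7%, background 2.22%). The share of members with a peak was above the background in each list, and in the deposited lists the highest share was in the control list. The LacZ list is the longest, and in lists trimmed to 502 peaks each, by p-value, the even and LacZ lists had 6 members each. The share of protein-coding genes is not given for the trimmed lists. The members were chosen with results of these data known, so the excess over the background is a description. Member genes had a median span of 89.3 kb, against 24.1 kb for all protein-coding genes and 43.7 kb for the 847 protein-coding genes with a peak. Within the set, the 11 genes with a peak had a median span of 79.4 kb and the 24 without one of 89.7 kb. The part of gene length in the excess was not tested.

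**Figure D1:**
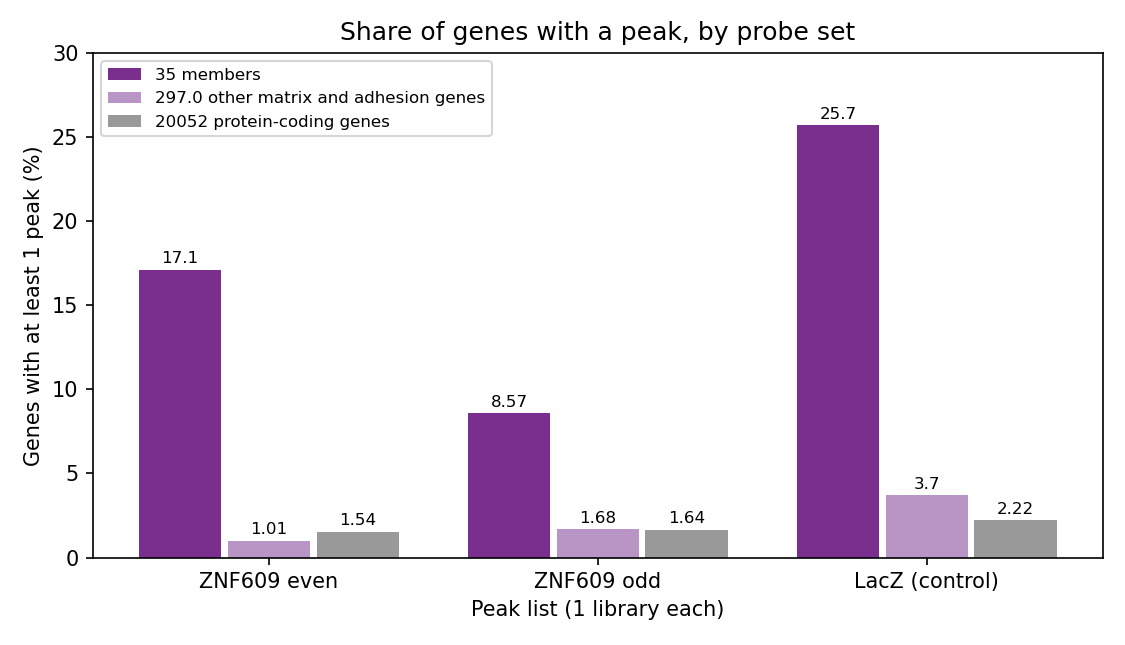
Percent of genes with at least 1 peak (y axis) in each peak list (x axis) for the 35 members, 297 other matrix and adhesion genes and 20052 protein-coding genes; each bar is a count from 1 library and has no error bar. The members stand at 17.1%, 8.57% and 25.7%, and the other matrix and adhesion genes lie between 1.01% and 3.7%.

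The class listed by even and by odd probes but not by LacZ probes held 0 of 35 members, against 0.209% of protein-coding genes. With 35 genes and that background, a count of 0 is near the background. Peaks in the even and LacZ lists and not in the odd list were found in 4 members (11.4%, background 0.219%), namely COL3A1, COL6A1, LAMC1 and CDH15. COL4A2 had odd and LacZ peaks and no even peak, 1 of 35 members (2.86%, background 0.294%). COL4A1 had peaks in all 3 lists (2.86%, background 0.224%). FN1, LAMB1 and TLN1 had LacZ peaks alone, VCL an even peak alone and TNC an odd peak alone. Of the 6 members with an even peak, 5 also had a LacZ peak (83.3%), whereas 89 of the 309 protein-coding genes with an even peak did (28.8%). Of the 3 members with an odd peak, 2 also had a LacZ peak (66.7%), against 104 of 328 protein-coding genes (31.7%). The even and LacZ lists thus shared 5 members, and the even and odd lists shared COL4A1 alone. These numbers of members are small, and no difference from the background was tested. In lists trimmed to 502 peaks each, by p-value, the even and LacZ lists shared COL3A1, COL4A1 and LAMC1. With p-values below 0.001 alone, which keeps 174 of the 502 even peaks, 0 members had an even peak. The share of protein-coding genes is not given for either setting, so these counts are not set against a background. The odd peak of COL4A2 includes a bin with the fixed value.

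COL4A1, which encodes a chain of the type IV collagen of basement membranes, had the most peaks of the set. It held 10 peaks, a number exceeded by 5 of the 847 protein-coding genes with a peak, for which the median was 1. COL4A1 (gene ID 1282) covers chromosome 13 from 110148963 to 110307157 on the minus strand. With even probes it had 4 peaks between 110206751 and 110210150, a stretch of 3400 bases. From the lower coordinate upwards these had 146, 272, 214 and 214.5 reads per bin. Their ranks in the even list by reads per bin were 449, 270, 334 and 332 of 502, all in the weaker 50% of the list. By p-value they ranked 312, 214, 372 and 436, with the peak at 214 in the stronger 50%. With odd probes COL4A1 had 3 peaks, starting at 110170541, 110176661 and 110177681, with 113, 614.7 and 431.5 reads per bin and widths of 170, 510 and 340 bases. The p-values deposited by the authors for these peaks were 0.00973, 0.00273 and 5.95e-05. The stronger pair ranked 43 and 90 of 542 by reads per bin and 249 and 41 by p-value, whereas the third odd peak ranked 529, close to the weakest of the list. With LacZ probes COL4A1 had 3 peaks between 110198421 and 110201650, with 84, 87 and 77 reads per bin, at ranks 463, 454 and 496 of 722.

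The COL4A1 peaks of each probe set formed a group of their own along the gene. Counted from the gene start to the middle of each peak, the even peaks lay at 97.2 to 100.3 kb, the LacZ peaks at 105.7 to 108.6 kb and the odd peaks at 129.3 to 136.5 kb. The nearest even and LacZ peaks were 5100 bases apart, the nearest odd and LacZ peaks 20400 bases and the nearest even and odd peaks 28730 bases. So COL4A1 was listed with all 3 probe sets, yet 0 bases were shared between any pair of lists. The odd peaks of COL4A1 held 2820 reads, 1.01% of the reads in odd peaks. The even peaks held 1061 reads (0.22% of the even list) and the LacZ peaks 409 reads (0.186% of the LacZ list).

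COL4A2, the partner chain gene on the other side of the shared start, had fewer peaks. COL4A2 (gene ID 1284) covers 110307284 to 110513209 of chromosome 13 on the plus strand. Its 1 odd peak, from 110474501 to 110474840, had 275 reads per bin and rank 196 of 542. That peak includes a bin with the fixed value, and without such peaks COL4A2 was listed by LacZ probes alone. Its 2 LacZ peaks, at 110357371 to 110357710 and at 110424691 to 110424860, had 195 and 201 reads per bin and ranked 158 and 144 of 722. The odd peak lay 49640 bases from the nearer LacZ peak, and COL4A2 had 0 even peaks. Of this pair of neighbouring genes, COL4A1 alone was listed with the even probes.

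**Figure D2:**
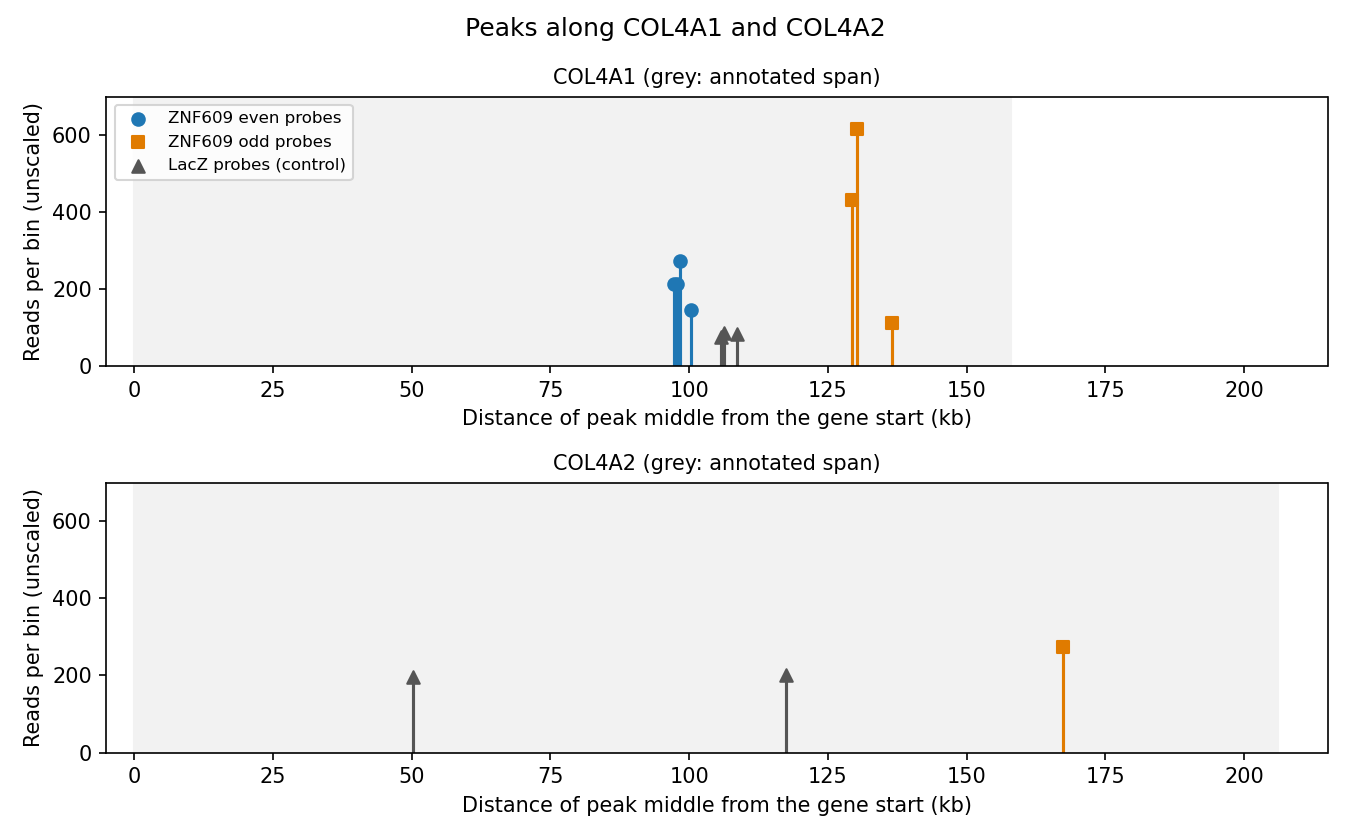
Reads per 170-base bin, unscaled (y axis), of each peak in COL4A1 (upper panel) and COL4A2 (lower panel) against the distance of the peak's middle from the annotated gene start in kb (x axis); grey marks the annotated span and colours mark the probe sets. In COL4A1 the 4 even, 3 LacZ and 3 odd peaks occupy separate stretches, with the odd peaks farthest from the start.

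Among the other collagen genes of the set, COL3A1 and COL6A1 had peaks. COL3A1, which encodes type III collagen of fibrils, had 1 even peak on chromosome 2, from 189006341 to 189006510. This peak had 153 reads per bin and rank 437 of 502. It had 4 LacZ peaks between 188993251 and 189003450, with 51, 61, 43 and 41 reads per bin at ranks 636, 575, 700 and 709 of 722. These LacZ peaks were among the weakest of that list, where the weakest peak had 38 reads per bin. The even COL3A1 peak lay 2890 bases from the nearest LacZ peak. COL6A1, which encodes a chain of the beaded filament collagen VI, had 1 even peak on chromosome 21, from 45984831 to 45985340. It had 319.3 reads per bin, included a bin with the fixed value and had the best rank by reads per bin of a member in the even list (226 of 502). Its LacZ peak at 45985001 to 45985170 had 48 reads per bin, ranked 656 of 722 and lay wholly within the even peak. COL6A1 was thus listed at the same place by even and LacZ probes. By reads per bin it was high among the even member peaks and near the end of the LacZ list.

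Of the 6 fibrillar collagen genes, COL1A1, COL1A2, COL5A1, COL5A2 and COL11A1 had 0 peaks in each list. Of the 7 other collagen genes, COL6A2, COL6A3, COL12A1 and COL18A1 had 0 peaks. COL1A1 and COL1A2 encode the chains of type I collagen, and COL6A2 and COL6A3 the chains that assemble with that of COL6A1. Of the collagen VI genes of the set, COL6A1 alone was listed, while both type IV members were listed. A peak in any list was found in 4.22% of protein-coding genes, so a few genes at 0 are near the background. The contrast between these collagens was not tested.

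Laminins are heterotrimers of an alpha, a beta and a gamma chain. LAMC1, which encodes the gamma chain found in most laminins, had 1 even and 3 LacZ peaks (gene ID 3915, chromosome 1, plus strand). With even probes, 183142701 to 183142870 had 161 reads per bin and ranked 414 of 502. The LacZ peaks, at 183134711 to 183135220, 183136241 to 183136750 and 183137601 to 183137940, had 268, 235 and 90 reads per bin. They ranked 88, 114 and 446 of 722, and the strongest was the best ranked member peak of the LacZ list, with a deposited p-value of 1.05e-05. Together they held 1689 reads, 0.77% of the reads in LacZ peaks and the largest LacZ total among the members. The even peak lay 4760 bases beyond the nearest LacZ peak, towards the gene's end. LAMB1, which encodes a beta chain, had 1 LacZ peak on chromosome 7, from 107935211 to 107935380, and its 43 reads per bin gave rank 700 of 722. LAMA4, LAMA5 and LAMB2, which encode further laminin chains, had 0 peaks. The basement membrane proteoglycan genes HSPG2 (perlecan) and AGRN (agrin) and the linker gene NID1 (nidogen) also had 0 peaks, so 2 of the 8 laminin and basement membrane genes were listed.

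Among 6 genes of glycoproteins and microfibrils, FN1 and TNC had peaks. FN1 encodes fibronectin, which integrins bind and assemble into fibrils. Its 2 LacZ peaks on chromosome 2, starting at 215367901 and 215370281 and each 170 bases wide, had 234 and 248 reads per bin and ranks 115 and 102 of 722. FN1 had 0 peaks with either ZNF609 probe set, and both of its LacZ peaks lay over bins with the fixed value, so that it had 0 peaks without these. The first FN1 peak also lay in the span of ATIC, and without strand the genes cannot be told apart there. TNC, which encodes tenascin-C, had 1 odd peak on chromosome 9, from 115064841 to 115065010, which ranked 415 of 542 with 153 reads per bin. FBN1 and FBN2, which encode the fibrillins of microfibrils, SPARC, which encodes a collagen binding protein, and THBS1, which encodes thrombospondin-1, had 0 peaks.

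Among adhesion genes, the integrin genes ITGA5, ITGA7 and ITGB1 had 0 peaks. ITGA5 and ITGB1 encode the subunits of a fibronectin receptor, and ITGA7 the alpha subunit of a laminin receptor of muscle. The linker genes inside the cell both had a peak, each in a different list. VCL, which encodes vinculin, had 1 even peak on chromosome 10, from 74074611 to 74074780, which ranked 410 of 502 with 163 reads per bin. TLN1, which encodes talin, had 1 LacZ peak on chromosome 9, from 35724481 to 35724650, which ranked 543 of 722 with 69 reads per bin. Of the cell to cell adhesion genes, CDH15 was listed, and CDH2 (N-cadherin) and NCAM1 had 0 peaks. CDH15 encodes M-cadherin, a cadherin of myoblasts. On chromosome 16, its even peak from 89188971 to 89189310 ranked 323 of 502 with 221 reads per bin. The LacZ peak of CDH15, from 89188801 to 89189310, ranked 432 of 722 with 94.3 reads per bin and covered all 340 bases of the even peak. By reads per bin, CDH15 thus had peaks of middling to low rank at the same place with even and LacZ probes. By p-value these peaks ranked 180 of 502 and 513 of 722.

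**Figure D3:**
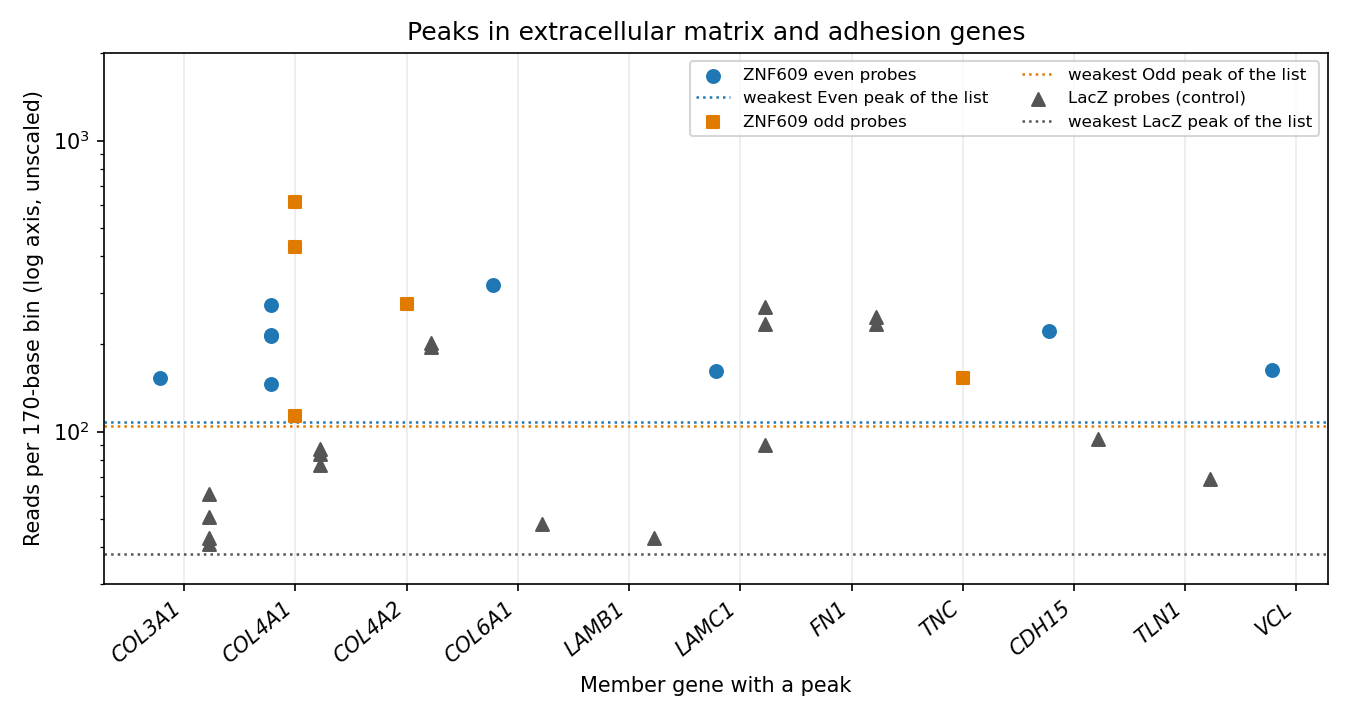
Reads per 170-base bin, unscaled (y axis, log scale), of each of the 32 peaks in the 11 members with a peak (x axis), by probe set; each point is a peak of 1 library and the dotted lines mark the weakest peak of each list (108, 105 and 38). The odd peaks of COL4A1 reach 614.7 reads per bin, and the LacZ peaks of COL3A1, COL6A1 and LAMB1 lie close to the weakest LacZ peak.

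The members held 32 peaks in all, of which 17 were 1 bin wide. Over all peaks, 256 of 502 even, 292 of 542 odd and 339 of 722 LacZ peaks were 1 bin wide. The member peaks made up 1.79% of even peaks (9 of 502, exact Clopper-Pearson 95% interval 0.823 to 3.38), 0.923% of odd peaks (5 of 542, 0.3 to 2.14) and 2.49% of LacZ peaks (18 of 722, 1.48 to 3.91). The intervals cover counting error alone, peaks of 1 gene are not independent, and the shares were not tested against each other. By reads, the member peaks held 0.609% of the reads in even peaks, 1.26% of those in odd peaks and 1.79% of those in LacZ peaks. In the odd list, 2820 of the 3523 member reads were in COL4A1.

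Member peaks with even probes were of low rank by reads per bin. Their median rank was 334 of 502, their reads per bin ran from 146 to 319.3, and 1 of the 9, that of COL6A1, lay in the stronger 50% of the list. By p-value their median rank was 372, and 1 peak each of CDH15 (rank 180), COL4A1 (214) and COL6A1 (243) lay in the stronger 50%. The deposited p-values of these 9 peaks ran from 0.00105 to 0.00855, so 0 of them were below 0.001, against 174 of the 502 peaks of the even list. The 5 odd member peaks had a median rank of 196 of 542 by reads per bin and of 297 by p-value, with COL4A1 peaks at both ends, ranks 43 and 529. The 18 LacZ member peaks had a median rank of 458.5 of 722 by reads per bin, and 6 lay in the stronger 50% of the list. These 6 were 2 peaks each of LAMC1, FN1 and COL4A2. By p-value the median rank of the LacZ member peaks was 390, and the COL4A1 peaks (ranks 359, 306 and 316) also lay in the stronger 50%. When peaks below a p-value of 0.001 alone were kept, COL4A1 remained in the odd list, COL4A2, FN1 and LAMC1 remained in the LacZ list, and no member remained in the even list. The lists then held 174 even, 139 odd and 267 LacZ peaks. The share of protein-coding genes with a peak is not given for that setting, so what remained is not set against a background.

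Overlapping peaks of different probe sets were found in 2 members. Among the 5 members with even and LacZ peaks, CDH15 and COL6A1 had overlapping peaks, 2 of 5 (40%), against 53 of 89 protein-coding genes with peaks in both lists (59.6%). Of the 2 members with odd and LacZ peaks, COL4A1 and COL4A2, 0 had overlapping peaks, against 64 of 104 protein-coding genes (61.5%). The single member with even and odd peaks, COL4A1, had no overlap, against 65 of 87 protein-coding genes with one (74.7%). The numbers of members are small, and no difference from the background was tested. The COL6A1 overlap rests on an even peak that includes a bin with the fixed value, and without such peaks CDH15 was the 1 member with overlapping peaks. In lists trimmed to 502 peaks each, by p-value, the LacZ peaks of CDH15, COL6A1 and LAMB1 dropped out, and members then had 0 overlapping peaks. The share of protein-coding genes with overlapping peaks is not given for the trimmed lists, so this 0 is not set against a background.

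Along the genes, the peaks of the 8 members with a strand in the promoter table lay mostly in the latter part of the span. Many of these peaks were in COL4A1 and LAMC1, which had 10 and 4. Peak positions over all protein-coding genes are not given, so this place is not shown to be particular to the members. LAMC1 peaks lay at 91.3% to 97.7% of the span from the start, FN1 peaks at 87.4% and 90.5%, and the LAMB1 peak at 85.5%. The odd peaks of COL4A1 lay at 81.7% to 86.3% and that of COL4A2 at 81.3%. The even peaks of COL4A1 lay at 61.4% to 63.4%, the VCL peak at 62.1% and the TNC peak at 54%. The TLN1 peak at 21.6% and a COL4A2 LacZ peak at 24.4% were the ones in the first 50% of the span. For COL3A1, COL6A1 and CDH15, which were not in the promoter table, positions were counted from the lower coordinate. The COL3A1 peaks lay at 49.6% to 83.5%, the COL6A1 peaks at 14.2% and those of CDH15 at 72.9% and 73.2%. Exon positions were not used here, so a peak was not assigned to an exon, an intron or an untranslated region.

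**Figure D4:**
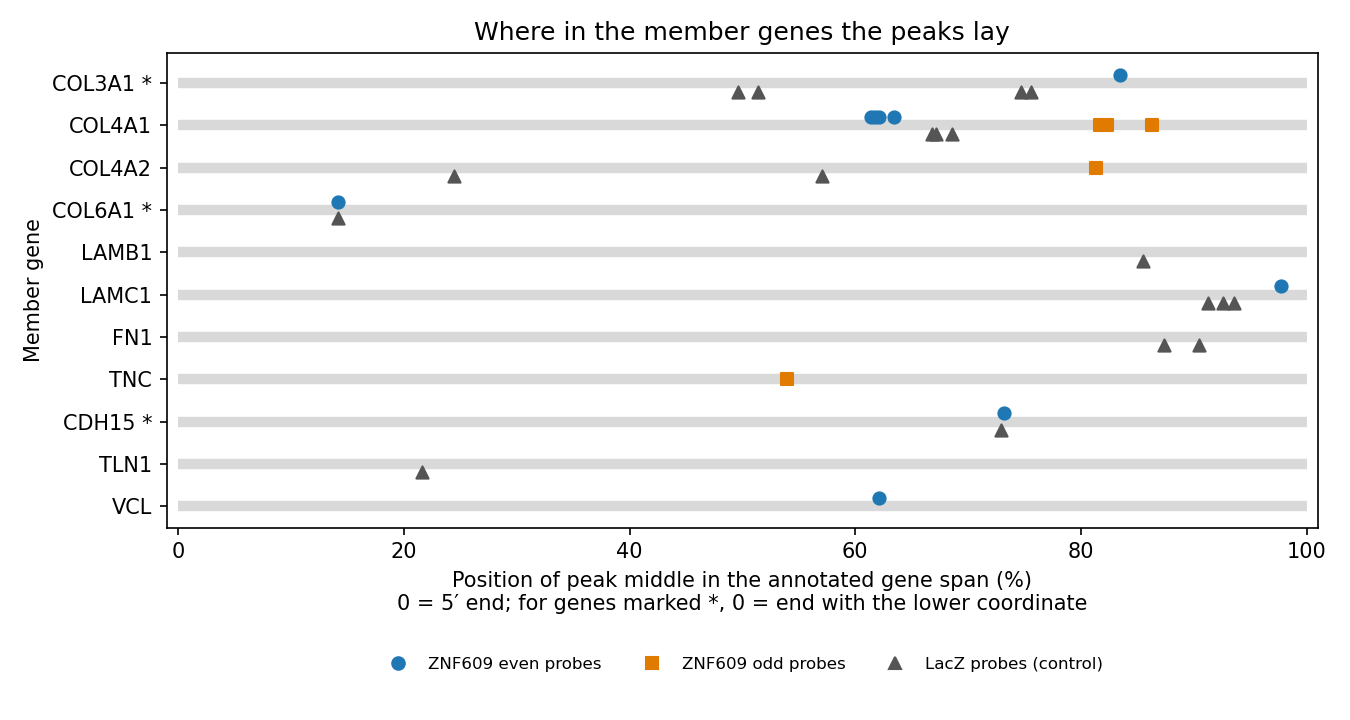
Position of the middle of each member peak as a percent of the annotated gene span (x axis) for the 11 members with a peak (y axis), by probe set; 0 is the 5′ end, or the end with the lower coordinate for the genes marked with an asterisk. Even and LacZ peaks coincide in COL6A1 and CDH15, and the peaks of LAMC1, FN1 and LAMB1 lie beyond 85% of the span.

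Of 297 further matrix and adhesion genes in 9 lists, 17 had a peak in any list (5.72%, against 4.22% of protein-coding genes). The even list held 3 of them (1.01%, background 1.54%), the odd list 5 (1.68%, background 1.64%) and the LacZ list 11 (3.7%, background 2.22%). Of these genes, 0 had even and odd peaks without a LacZ peak (background 0.209%). Without peaks over bins with the fixed value, an alternative chosen after seeing the data, the LacZ list held 8 of them. The 29 collagen maturation genes, 61 other glycoprotein and proteoglycan genes and 23 other integrin genes had 0 peaks. Of 31 other collagen genes, COL2A1, which encodes the type II collagen of cartilage, had 2 even peaks with 160 and 170 reads per bin. Of 16 other laminin and basement membrane genes, LAMA1 and LAMB4 had LacZ peaks alone, with 139.3 and 275 reads per bin, and the LAMA1 peak lay over bins with the fixed value. With the integrin genes added, 0 of 26 integrin genes of both lists had a peak. With 26 genes and a background of 4.22%, a count of 0 is near the background.

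The focal adhesion list, genes of proteins that gather at integrin contacts, had peaks in 7 of 35 genes, against 4.22% of protein-coding genes. KANK2, which encodes a talin binding protein, was listed with all 3 probe sets at the same bases of chromosome 19, from 11195521 to 11195860. KANK2 had 652 reads per bin there with even probes, 199.5 with odd probes and 267.5 with LacZ probes. The member with peaks in all 3 lists, COL4A1, had them at separate places. TNS3, a tensin gene, had an even peak with 526 reads per bin at rank 119 of 502, and ACTN4, an actinin gene, an odd peak at rank 480 of 542 that also lay in LOC107985291. DOCK1, which encodes an exchange factor for Rac, had 5 LacZ peaks, the strongest with 516.5 reads per bin at rank 23 of 722. Each of the 5 includes bins with the fixed value, and some also lay in LOC105378551. PTK2, which encodes focal adhesion kinase, had a LacZ peak at rank 98, and ACTN1 one at rank 341. Of 43 other cadherin and cell adhesion genes, AFDN and NECTIN1 had odd peaks, and FAT1 and CTNNA2 had LacZ peaks. SGCZ, 1 of 20 genes of the dystrophin complex, had a LacZ peak at rank 6 of 722 that also lay over bins with the fixed value. Of 39 matrix remodelling genes ADAMTS1 had an odd peak and ADAM15 a LacZ peak that also lay in overlapping genes.

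Of 13 skeletal muscle markers, 4 had a peak in any list (background 4.22%), namely DES, TNNT1 and TNNT2 and the member CDH15. Of 4 epithelial markers KRT18 had an odd peak, and of 3 blood and 3 endothelial markers 0 had a peak. Peaks of a pull-down do not measure expression, so these counts do not check the labelled cell type, and a marker without a peak is not shown to be absent.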

How the data were processed

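Even, odd and LacZ pull-downs were analysed from 1 peak list each; the list names give Piranha as the peak caller, its version and settings being not given in the sources used here. In the submitters' processing notes, STAR 2.5.2b, Trimmomatic, SAMtools, Picard, bedtools and bcl2fastq 2.0.2 and the build GRCh38 are named without roles. Peaks were called per library. Per the labels' protocols, libraries were made with Ovation kits, and all peaks are listed on 1 strand. The lists have no header. The signal deposited by the authors was read as reads per bin of 170 bases, since 100% of peaks gave whole reads (tolerance 0.02) on a 170-base grid; it is unscaled, and library depth is unknown. Each p-value in the deposited lists was below 0.01. The score deposited by the authors in column 8 has no stated meaning; it was used to find peaks over bins with a fixed value of 0.01.

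Gene spans are from RefSeq GRCh38.p14, and all 35 members matched by symbol. A peak counted for each gene it overlapped by at least 1 base. Members with any peak were named with each peak. In each other list, genes with peaks in 2 or more peak lists were named, and up to 3 by rank of those in 1 alone. The members and lists were chosen with earlier results of these data known. Counting was tested on simulated lists. Python 3.11.15, pandas 2.3.3 and scipy 1.17.1 were used. Alternatives were a p-value below 0.001, lists trimmed to 502 peaks, no peaks over fixed-value bins, 1 gene per peak, 50% reciprocal overlap, a distance of 200 bases, and ranking by p-value.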

Additional observations from a re-analysis of the deposited data

How the results depend on the processing

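Of 78 alternative values, 61 stayed within 1.5 times the value reported and 17 did not. The 61 include counts of 0 that stayed at 0. A count of 0 overlapping pairs cannot rise when peaks are dropped or the overlap rule is tightened, so the 61 overstates stability. With p-values below 0.001 alone, members with an even peak fell from 6 to 0, with an odd peak from 3 to 1, with a LacZ peak from 9 to 3 and with any peak from 11 to 4. Members with even and LacZ peaks and no odd peak went from 4 to 0, and those in all 3 lists from 1 to 0. Even peaks in members went from 9 to 0, odd from 5 to 1, LacZ from 18 to 5, and overlapping even and LacZ pairs from 2 to 0. That setting keeps 174 of 502 even, 139 of 542 odd and 267 of 722 LacZ peaks. The share of all protein-coding genes with a peak is not given for it, so these falls are not set against a background. The count of members with a LacZ peak alone stayed at 3 there, but for COL4A2, FN1 and LAMC1 in place of FN1, LAMB1 and TLN1. Of the other matrix and adhesion genes, 1 had an odd peak (from 5) and 6 a LacZ peak (from 11). In lists trimmed to 502 peaks, members with even and LacZ peaks and no odd peak were 2 and overlapping even and LacZ pairs 0, by loss of LacZ peaks with higher p-values. For the trimmed lists, too, no background is given. Those pairs were 1 without peaks over fixed-value bins and 1 with 50% reciprocal overlap, which the COL6A1 pair does not reach. The median rank of odd member peaks was 297 by p-value, against 196 by reads per bin. Members listed by both ZNF609 probe sets and not by LacZ probes were 0 in each setting run on that count. Unknown depth and 1 library per probe set limit these values. No paired analysis was possible because each probe set had 1 library.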

Other observations

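The number of peaks in a gene differed widely among the members. COL3A1 had 5 peaks and LAMC1 had 4, numbers exceeded by 36 and 55 of the 847 protein-coding genes with a peak. COL4A2 had 3, COL6A1, FN1 and CDH15 had 2 each, and LAMB1, TNC, TLN1 and VCL had 1 each, as did 460 of the 847 genes.

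The unnamed score in column 8 of the lists, given here in steps of its smallest value and as the mean over the bins of a peak, had a median of 15 steps in even member peaks, 13.5 in odd and 15.5 in LacZ member peaks. The medians over all peaks were 12.5, 10.6 and 18. Both FN1 peaks lay over bins with the fixed value, as did a part of the COL4A2 odd peak and of the COL6A1 even peak, 4 of the 32 member peaks. Over all peaks the fixed value was under 11.4% of even, 4.06% of odd and 23.4% of LacZ peaks.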
